A study of Mus musculus with 12 samples.

Results

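Autosomal gene expression was compared between 2 libraries of differentiated female mouse embryonic stem cells labelled RlimKO and 2 libraries of differentiated E14 cells, a male wild-type embryonic stem cell line. The 4 libraries were chosen by their sample labels, out of 12 in the series, and the genes by chromosome. Of 23336 gene symbols in the deposited counts, 22064 lay on an autosome and 11862 of these had enough counts to be tested. Each gene's difference was required against E14 replicate 1 and against E14 replicate 2 separately.

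The RlimKO-labelled cells and the wild-type female Pgk12.1 cells, which serve as a second reference below, are labelled C57BL/6, as is E14. All differentiated groups compared here were treated in the same way: embryoid bodies were formed without LIF for 3 days. The cells were then cultured for 6 further days in 7.5% oxygen. Undifferentiated libraries of the same lines are also compared below, and all libraries of the series supply the estimate of spread. The labels do not say whether a line is 1 clone, how the Rlim allele was changed, or whether the 2 libraries of a group are separate cultures. The p-values therefore speak for the spread among these libraries, and that spread may be technical. The RlimKO-labelled and E14 cells differ in sex and in line as well as in the Rlim label, and these cannot be told apart in this contrast.

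Rlim encodes an X-linked ubiquitin ligase known for its part in X-chromosome inactivation. Autosomal genes offer a view of what else separates the lines. In embryoid bodies, stem cells leave pluripotency and form mixtures of mesoderm, endoderm and ectoderm derivatives, among them beating heart muscle and yolk-sac-like visceral endoderm. Imprinted genes, expressed from the maternal or the paternal chromosome only, are known to be prone to change between embryonic stem cell lines.

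The targeted gene did not separate the labels after differentiation. Rlim stood at 538 and 567 CPM in the libraries labelled RlimKO and at 515 and 530 CPM in the E14 libraries, a log2 difference of 0.08 ± 0.14 (SE; edgeR, adjusted p = 0.755). Before differentiation the libraries labelled RlimKO lay below the others, at 324 and 302 CPM against 404 and 521 CPM in E14 and 538 and 557 CPM in wild-type female cells. CPM are counts scaled to 1000000 counts over the tested genes of a library, after TMM scaling, and log2 values are fitted differences. The labels do not give the deleted part of the gene, so these counts do not settle them, and every direction below refers to the libraries labelled RlimKO. The cells had left pluripotency in all 4 libraries: Pou5f1, the central pluripotency factor, stood at 16.8 and 20.8 CPM in the RlimKO-labelled libraries and at 12.4 and 21.9 CPM in the E14 libraries, against 660.5 to 842 CPM in the 6 undifferentiated libraries of the series.

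The sequences behind 2 of the findings are shown first. Hairpin symbols Mir134, Mir382 and Mir494 of the chromosome 12 microRNA cluster were among the genes raised furthest, and their mature products are printed 5′ to 3′ with the seed (bases 2 to 8) in capitals, from RefSeq on GRCm38.p6. They come from chr12:109715334-109734203 on the plus strand, and no 2 of these 6 seeds are alike. The libraries were made from long cDNA, so a count at a hairpin symbol is a count of RNA over that stretch and not of the mature microRNA.
mmu-miR-494-5p: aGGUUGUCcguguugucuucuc
mmu-miR-494-3p: uGAAACAUacacgggaaaccuc
mmu-miR-382-5p: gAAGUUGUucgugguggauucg
mmu-miR-382-3p: uCAUUCACggacaacacuuuuu
mmu-miR-134-5p: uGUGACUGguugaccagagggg
mmu-miR-134-3p: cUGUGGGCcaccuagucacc

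Sarcomere and smooth muscle genes were the lineage with the largest share of members lower in the RlimKO-labelled libraries. Serum response factor, a regulator of muscle genes, is known to bind a short palindromic motif, the CArG box. It was searched in the RefSeq window from 250 bases before to 50 bases after each gene's start (GRCm38.p6), where it occurred in 535 of 32851 windows (1.63%). Among the 15 muscle genes with a window that were lower than both E14 libraries, Myl7, Actc1, Myom1 and Acta1 held it, and among the 10 other tested muscle genes with a window 0 did. The 150 bases before the start of 3 of these genes are printed 5′ to 3′ with the CArG box in capitals. Myl7 lies at chr11:5898783-5898932, Actc1 at chr2:114052876-114053025 and Acta1 at chr8:123894776-123894925, all read on the minus strand. A match describes the letters only. A gene was counted where any of its windows matched, so the gene counts and the share of windows are in unlike units. The difference between the 2 groups of muscle genes was not tested.
Myl7: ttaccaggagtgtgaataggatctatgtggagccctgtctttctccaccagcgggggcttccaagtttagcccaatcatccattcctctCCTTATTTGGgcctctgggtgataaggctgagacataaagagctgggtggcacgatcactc
Actc1: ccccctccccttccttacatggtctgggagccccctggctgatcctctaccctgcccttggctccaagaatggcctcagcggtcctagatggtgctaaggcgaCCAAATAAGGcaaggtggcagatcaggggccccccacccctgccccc
Acta1: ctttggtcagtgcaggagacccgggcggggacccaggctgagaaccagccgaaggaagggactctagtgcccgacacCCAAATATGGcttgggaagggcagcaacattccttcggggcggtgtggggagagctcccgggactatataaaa

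The libraries differed in ways other than their labels. Counts over all genes ran from 2011919 to 5401940 per library. Rn45s, the ribosomal RNA precursor, took 67.7% and 30.8% of the counts in the RlimKO-labelled libraries but 22.5% and 6.36% in the E14 libraries, and Lars2 took 7.84% and 6.17% against 0.862% and 0.0212%. Both genes were removed, which left 1027807 and 2247258 counts against 2388114 and 5057003. The 2 E14 libraries differed from each other by a chi-square of 24.8 per degree of freedom over genes, against 1.85 to 2.32 for the other 5 pairs. In the sample names E14 replicate 2 carries a number out of series with the other 11 libraries, so whether the 2 E14 libraries are replicates prepared alike is not known, and every standard error and p-value against E14 as a group takes them as replicates. The part of these differences in the results was not tested.

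With all 12 libraries in 1 edgeR quasi-likelihood fit, 612 autosomal genes were higher (5.16% of those tested) and 846 lower (7.13%) in the RlimKO-labelled libraries at an adjusted p below 0.05, together 12.3%. Against E14 replicate 1 alone 2311 genes passed (19.2%; 9.3% higher and 9.89% lower), and against E14 replicate 2 alone 4178 (34.6%; 16.6% higher and 18.0% lower). Passing both single comparisons, 1266 genes moved the same way and 113 moved opposite ways. The 2 single comparisons take their spread from the other groups, whose pairs differed far less than the E14 pair, so their p-values are likely too small. A gene is said below to differ from both E14 libraries where it passed in the fit of all libraries and, in the same direction, against each E14 library alone. That left 1107 genes (9.33%), of which 548 were higher (4.62%) and 559 lower (4.71%), and in all of these the 4 libraries did not overlap. Groups that do not overlap were common, however, at 51.3% of the genes tested.

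**Figure D1:**
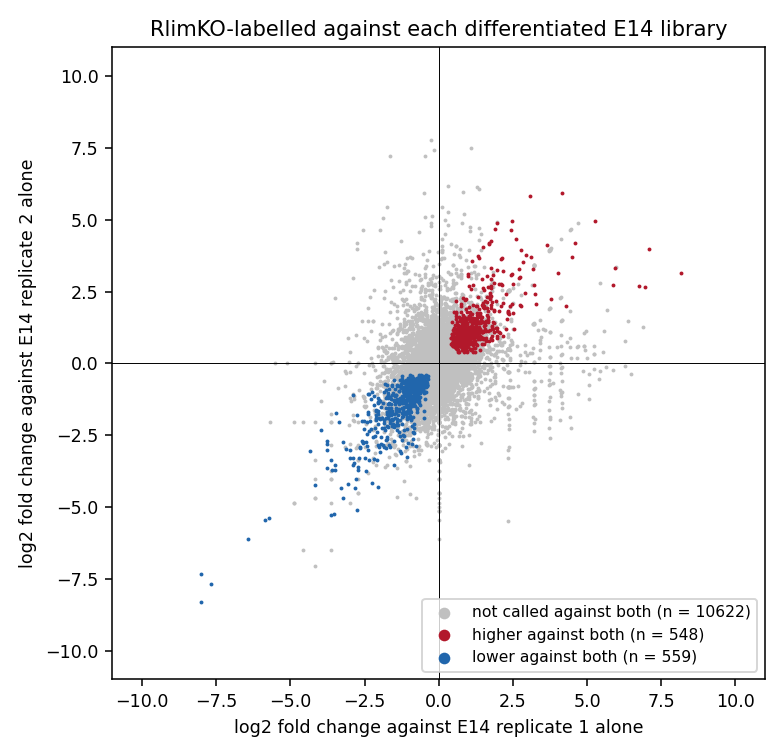
Each point is 1 tested autosomal gene, with the fitted log2 fold change of the RlimKO-labelled libraries against E14 replicate 1 alone on the x axis and against E14 replicate 2 alone on the y axis. The 548 genes higher than both libraries are red and the 559 lower than both are blue, and many grey genes lie in the quadrants where the 2 comparisons have opposite signs.

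These counts depend on which libraries supply the estimate of spread. Fitted on the 4 libraries alone, 10 genes passed, and fitted on the 6 differentiated libraries 530 passed. Without RlimKO-labelled replicate 1 the number that differed from both E14 libraries was 435, and without RlimKO-labelled replicate 2 it was 245. The 10 genes of the 4-library fit were H19, Mirg and Man2a1, which were higher, and Grb10, Igf2r, Zim1, Htra1, Cdkn1c, Thbs1 and Ankrd1, which were lower (Ankrd1 is named after its values were seen). Of these 10, H19, Grb10, Igf2r, Zim1, Cdkn1c and Mirg are imprinted.

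Imprinted genes differed in both directions. Among 16 tested maternally expressed imprinted genes 4 were higher and 4 lower than both E14 libraries, and among 22 paternally expressed ones 7 were higher and 1 lower, against 4.62% and 4.71% of all tested genes. Without either RlimKO-labelled library in turn, the maternally expressed counts stayed 4 and 4, and 6 paternally expressed genes were higher. The median log2 difference was 0.03 over the maternally expressed list and 0.68 over the paternally expressed list, against -0.07 over all autosomal genes tested.

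At the distal end of chromosome 7, H19, Igf2, Cdkn1c and Kcnq1ot1 lie in neighbouring imprinted domains. H19, a maternally expressed noncoding RNA, stood at 10456 and 8387 CPM in the RlimKO-labelled libraries and at 251 and 314 CPM in the E14 libraries. The difference was 5.06 ± 0.41 on the log2 scale (edgeR, adjusted p = 6.77e-06), and the wild-type female libraries were as high, at 12066 and 13110 CPM. Igf2, the paternally expressed growth factor of the same domain, ran the other way.

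Igf2 was counted at 786 and 572 CPM in the RlimKO-labelled libraries against 14063 and 5686 CPM in E14, and at 2281 and 2114 CPM in the wild-type female libraries. Its log2 difference from E14 was -3.87 ± 0.46 (edgeR, adjusted p = 0.000184). Cdkn1c, a maternally expressed cell-cycle inhibitor, stood at 46.3 and 43.0 CPM against 189 and 197 CPM (log2 difference -2.12 ± 0.25; edgeR, adjusted p = 0.00019). The wild-type female libraries were close to the RlimKO-labelled ones for Cdkn1c, at 43.4 and 42.1 CPM. Kcnq1ot1, the paternally expressed RNA of that domain, reached 1685 and 1791 CPM against 574 and 410 CPM (log2 difference 1.82 ± 0.17; edgeR, adjusted p = 3.3e-05).

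Among the tested imprinted genes, the 3 furthest below E14 were maternally expressed. Grb10 on chromosome 11 encodes an adaptor that dampens growth-factor signalling. It stood at 5.91 and 8.32 CPM in the RlimKO-labelled libraries, 2027 and 1268 CPM in E14, and 47.2 and 53.3 CPM in the wild-type female libraries. The RlimKO-labelled cells were thus lowest of the 3 lines, by -7.77 ± 0.29 against E14 (edgeR, adjusted p = 3.29e-10) and by -2.73 against the wild-type female cells (edgeR, adjusted p = 0.000387), both on the log2 scale.

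Igf2r on chromosome 17 encodes the receptor that clears IGF2. Its counts were 72.0 and 67.5 CPM in the RlimKO-labelled libraries, 4064 and 3122 CPM in E14, and 124 and 133 CPM in the wild-type female libraries (log2 difference from E14 -5.69 ± 0.19; edgeR, adjusted p = 7.88e-11). Both female lines were far below E14. Airn, which overlaps Igf2r on the other strand, stood at 81.8 and 100 CPM against 80.6 and 47.4 CPM and did not pass (edgeR, adjusted p = 0.237); with no strand marked, reads from the overlap cannot be told apart. Zim1 on chromosome 7, a zinc finger gene, stood at 10.8 and 5.09 CPM against 383 and 303 CPM in E14 and 151 and 150 CPM in the wild-type female libraries (log2 difference from E14 -5.57 ± 0.32; edgeR, adjusted p = 1.19e-07).

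Of the 22 tested paternally expressed genes, 7 were higher than both E14 libraries, 1 (Igf2) was lower and the others did not pass; 4 had opposite signs against the 2 E14 libraries. Plagl1 on chromosome 10, a zinc finger regulator of other imprinted genes, stood at 2416 and 2391 CPM in the RlimKO-labelled libraries, 138 and 40.1 CPM in E14 and 2271 and 1995 CPM in the wild-type female libraries. The log2 difference from E14 was 4.81 ± 0.45 (edgeR, adjusted p = 3.38e-05). Nnat, a small membrane protein gene of neurons and other tissues, stood at 374 and 330.2 CPM against 110 and 20.1 CPM. Ndn, a growth suppressor of the Prader-Willi region, stood at 148 and 143 CPM against 44.3 and 29.4 CPM. Rtl1, Impact, Kcnq1ot1 and Peg10 were also higher than both E14 libraries. Rtl1 lies in the Dlk1-Dio3 domain described below, and with no strand marked its reads cannot be assigned to 1 strand. The call for Peg10 was lost without either RlimKO-labelled library (edgeR, adjusted p = 0.104 without replicate 1 and 0.0783 without replicate 2).

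**Figure D2:**
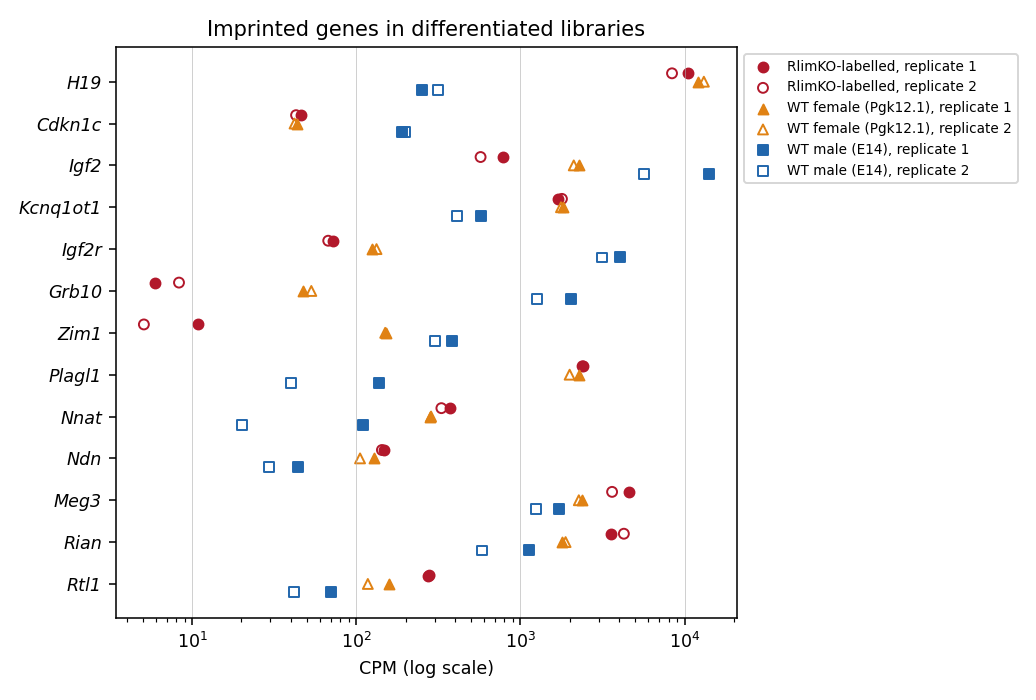
CPM on a log axis of 13 imprinted genes in the 6 differentiated libraries, with 1 point for each library. For Cdkn1c, Kcnq1ot1, Plagl1 and H19 the wild-type female points lie near the RlimKO-labelled points and away from E14, whereas for Meg3, Rian and Rtl1 they lie between.

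The Dlk1-Dio3 domain of chromosome 12 showed another pattern, with the RlimKO-labelled libraries highest of the 3 lines for the long noncoding RNAs Meg3, Rian and Mirg. This domain holds paternally expressed protein genes and a long row of maternally expressed noncoding RNAs. Of its 72 symbols 29 were tested, 21 were higher than both E14 libraries and 0 were lower, beside 4.62% and 4.71% of all tested genes. Hairpin symbols and the host transcripts that carry them are counted singly, so the 21 need not be separate transcripts. Meg3, the first of the noncoding RNAs, stood at 4579 and 3618 CPM in the RlimKO-labelled libraries, 1731 and 1250 CPM in E14, and 2357 and 2269 CPM in the wild-type female libraries (log2 difference from E14 1.46 ± 0.17; edgeR, adjusted p = 0.00019). Mirg, the microRNA host transcript at the far end of the row, stood at 226 and 191 CPM, 32.3 and 21.5 CPM, and 88.0 and 86.2 CPM in the same order (log2 difference from E14 2.98 ± 0.29; edgeR, adjusted p = 4.85e-05). Rian, the small nucleolar RNA host between them, followed the same order, with 3585 and 4269 CPM, 1121 and 581 CPM, and 1793 and 1885 CPM.

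The 59 microRNA hairpin symbols of the domain summed to 433 and 403 CPM in the RlimKO-labelled libraries, 113 and 63.5 CPM in E14, and 173 and 163 CPM in the wild-type female libraries. Of the 19 tested, 13 were higher than both E14 libraries, beside 4.62% of all tested genes. Mir494 stood at 12.8 and 11.6 CPM against 0.443 and 0.62 CPM, Mir382 at 25.6 and 19.4 CPM against 1.33 and 2.48 CPM, and Mir134 at 20.7 and 22.7 CPM against 0 and 2.48 CPM. These hairpins rest on few counts, and their calls were lost without RlimKO-labelled replicate 2 (edgeR, adjusted p = 0.0841 for Mir494, 0.0725 for Mir382 and 0.0891 for Mir134) and, for Mir494 and Mir382, also without replicate 1 (0.0548 and 0.067). The difference predated differentiation for the longer genes: Meg3 and Rian were higher by 1.81 and 2.06 on the log2 scale in undifferentiated RlimKO-labelled cells than in undifferentiated E14 (edgeR, adjusted p = 6.55e-05 and 0.000171). The other tested symbols of the domain did not pass, among them its paternally expressed ends. Dlk1, a membrane protein gene, stood at 402 and 338 CPM against 670 and 393 CPM in E14 (edgeR, adjusted p = 0.241), and it was lower than in the wild-type female libraries, at 1180 and 865 CPM (log2 difference -1.47; edgeR, adjusted p = 0.0113). Dio3, a thyroid hormone deiodinase gene, had 7 and 10 counts against 4 and 49, and so was not above both E14 libraries.

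Muscle came next. Of 19 tested cardiac genes 11 were lower than both E14 libraries and 0 higher, and of 12 tested skeletal and smooth muscle genes 7 were lower and 0 higher, against 4.71% of all tested genes lower. Their median log2 differences were -1.77 and -1.23, and against E14 replicates 1 and 2 separately they were -1.15 and -1.75 for the cardiac list and -1.22 and -0.90 for the other. Without RlimKO-labelled replicate 1 the counts were 9 cardiac and 1 skeletal or smooth muscle genes, without replicate 2 they were 3 and 0, and in the 4-library fit 0 and 0. In bulk RNA, fewer cells of a type and less RNA per cell cannot be told apart.

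Among sarcomere genes, Myl7, the atrial myosin light chain, stood at 0.986 and 1.39 CPM in the RlimKO-labelled libraries, 15.5 and 51.1 CPM in E14, and 11.05 and 9.64 CPM in the wild-type female libraries. Its log2 difference from E14 was -4.69 ± 0.69 (edgeR, adjusted p = 0.000936). Actc1, cardiac actin, stood at 4.93 and 6.94 CPM against 88.6 and 45.3 CPM (log2 difference -3.41 ± 0.42; edgeR, adjusted p = 0.000469). The wild-type female libraries lay between the lines for Actc1, at 41.9 and 36.5 CPM.

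Ttn, the giant spring of the sarcomere, stood at 51.3 and 61.5 CPM against 213 and 442 CPM (log2 difference -2.53 ± 0.28; edgeR, adjusted p = 0.000135), with 267 and 242 CPM in the wild-type female libraries. Myl7, Actc1 and Ttn passed with any 1 of the 12 libraries left out. Myh6, an atrial myosin heavy chain, stood at 4.93 and 5.55 CPM against 27.9 and 57.1 CPM, and its call was lost without RlimKO-labelled replicate 2 (edgeR, adjusted p = 0.0755). Ldb3, a Z-disc protein gene outside the lists, was also among the 12 genes furthest below E14, with 0 and 3.7 CPM against 17.7 and 42.0 CPM.

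In the actin genes of other muscle, Acta1, skeletal actin, stood at 1.97 and 2.31 CPM against 15.5 and 79.0 CPM, with the E14 libraries far apart from each other. Acta2, smooth muscle actin, stood at 1208 and 1305 CPM against 3575 and 2872 CPM (log2 difference -1.36 ± 0.25; edgeR, adjusted p = 0.00386). The call for Acta1 was lost without RlimKO-labelled replicate 2 (edgeR, adjusted p = 0.0721), and that for Acta2 without either replicate (0.0618 and 0.0776). Tagln, a smooth muscle actin-binding protein gene, stood at 359 and 412 CPM against 754 and 662 CPM, and its call was likewise lost without either replicate (0.133 and 0.116). Against the wild-type female libraries, 7 cardiac and 2 skeletal or smooth muscle genes were lower in the RlimKO-labelled libraries and 0 higher. Of all tested genes 1.9% were lower, and this comparison holds no male library. The number of autosomal genes lower in it fell from 225 to 30 without RlimKO-labelled replicate 1 and to 6 without replicate 2. Not all of these muscle genes could thus pass without replicate 2.

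**Figure D3:**
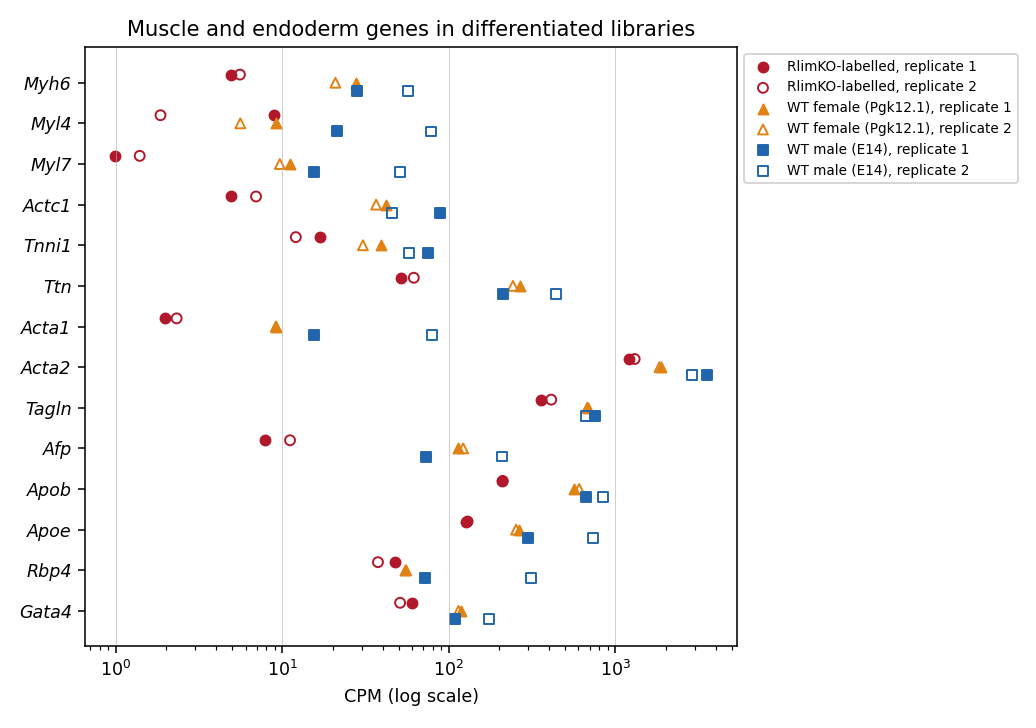
CPM on a log axis of 14 muscle and endoderm genes in the 6 differentiated libraries, with 1 point for each library. All 14 are among the genes lower than both E14 libraries, so that the RlimKO-labelled points lie left of both E14 points follows from their choice. The E14 points are up to several-fold apart, as for Acta1, Rbp4 and Myl4.

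The visceral endoderm genes that passed were lower, and they were a minority of their list. This extraembryonic epithelium secretes serum proteins and takes up nutrients. Of 20 tested members 5 were lower than both E14 libraries (Afp, Apob, Apoe, Rbp4 and Soat2) and 0 higher, with a median log2 difference of -1.56, and -0.58 and -1.93 against E14 replicates 1 and 2, beside 4.71% of all tested genes lower. Opposite signs against the 2 E14 libraries were found for 4 members. Lrp2, an uptake receptor of this epithelium, lay above both E14 libraries, at 332 and 376 CPM against 202 and 281 CPM, and did not pass (edgeR, adjusted p = 0.0756). The whole list of 29 summed to 1338 and 1343 CPM in the RlimKO-labelled libraries, 2161 and 3771 CPM in E14 and 1807 and 1809 CPM in the wild-type female libraries. Without RlimKO-labelled replicate 1 or 2, 3 members were lower each time.

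Afp, the fetal serum protein alpha-fetoprotein, stood at 7.89 and 11.1 CPM in the RlimKO-labelled libraries, 73.1 and 208 CPM in E14, and 113 and 122 CPM in the wild-type female libraries (log2 difference from E14 -3.83 ± 0.47; edgeR, adjusted p = 0.00044). Apob, the structural protein of lipoprotein particles, stood at 209 and 210 CPM against 670 and 845 CPM (log2 difference -1.85 ± 0.16; edgeR, adjusted p = 1.4e-05). Both genes were also lower than in the wild-type female libraries, by -3.56 and -1.48 on the log2 scale (edgeR, adjusted p = 0.00213 and 0.000383). Apoe, another lipoprotein gene, stood at 127 and 129 CPM against 300 and 737 CPM.

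Among 12 tested endoderm transcription factors Gata4, shared with the cardiac list, was lower than both E14 libraries, with 60.1 and 50.9 CPM against 108 and 173 CPM. That call was lost without RlimKO-labelled replicate 2 (edgeR, adjusted p = 0.128). Of 14 tested parietal endoderm genes 3 were lower, all laminin chains of the basement membrane. Lama1 stood at 314 and 307 CPM against 655 and 634 CPM (log2 difference -1.05 ± 0.15; edgeR, adjusted p = 0.000668), while Lamb1 and Lamc1 lost their calls without either RlimKO-labelled replicate (adjusted p = 0.0798 and 0.0854 for Lamb1, and 0.164 and 0.188 for Lamc1). Over the wider list of 43 tested collagen and laminin chains 2 were higher and 6 lower. Among all tested genes 4.62% were higher and 4.71% lower. Col9a2, a cartilage collagen chain, was higher, at 50.3 and 48.1 CPM against 14.6 and 12.2 CPM, and Col18a1, a basement membrane collagen, was lower, at 637 and 573 CPM against 1080 and 1061 CPM; the call for Col18a1 was lost without RlimKO-labelled replicate 2 (adjusted p = 0.0548).

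Other lineages moved little, or moved differently against each E14 library. Of 16 tested endothelial genes 14 had opposite signs against the 2 E14 libraries, with a median of -1.16 against replicate 1 and 1.47 against replicate 2. In edgeR 0 of them differed from both, 2 had an unadjusted p below 0.05 in the fit of all libraries, and DESeq2 called 1. Of all 11862 genes tested, 9.33% differed from both, 3311 had such an unadjusted p and DESeq2 called 1024. The summed level of the endothelial list was 546 and 525 CPM in the RlimKO-labelled libraries and 1162 and 422 CPM in E14. Embryonic blood genes (12 tested, 8 of opposite sign) and Hox genes (10 tested, 8 of opposite sign) were also split between the 2 comparisons. Runx1, a blood transcription factor, was the blood gene lower than both, at 21.7 and 17.1 CPM against 98.3 and 40.7 CPM, and its call was lost without either RlimKO-labelled replicate (edgeR, adjusted p = 0.0961 and 0.237).

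Counts of 0 in either direction against both E14 libraries were found for 17 tested neural, 8 neural crest, 12 germ cell and 16 p53 target genes. At an unadjusted p below 0.05 edgeR passed 3, 1, 2 and 6 of these, and DESeq2 called 2, 0, 0 and 3. Over all 11862 genes tested, edgeR passed 3311 at that unadjusted p and DESeq2 called 1024. Of 24 tested mesenchyme genes, Thbs1, a matricellular protein gene, was lower (362 and 388 CPM against 1285 and 1306 CPM) and Col5a2, a fibrillar collagen chain, higher (1350 and 1362 CPM against 548 and 109 CPM). Among all tested genes 4.62% were higher and 4.71% lower. The mesenchyme list's median was -0.15 against E14 replicate 1 and 1.17 against replicate 2. Its summed level was 34366 and 34080 CPM in the RlimKO-labelled libraries and 37615 and 17663 CPM in E14. The call for Col5a2 was lost without either RlimKO-labelled replicate (edgeR, adjusted p = 0.0608 and 0.0858).

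Epithelial genes were split. Of 15 tested, 2 were higher and 1 lower than both E14 libraries, beside 4.62% and 4.71% of all tested genes. Opposite signs against the 2 E14 libraries were found for 9 of the 15. Upk3b and Upk1b, uroplakins of the urothelium and of mesothelium, were higher in the RlimKO-labelled cells than in both other lines. Upk3b stood at 224 and 281 CPM, against 31.0 and 4.55 CPM in E14 and 53.7 and 49.7 CPM in the wild-type female libraries (log2 difference from E14 3.99 ± 0.55; edgeR, adjusted p = 0.000523). Upk1b stood at 103 and 106 CPM, against 15.5 and 27.1 CPM in E14 and 15.2 and 14.2 CPM in the wild-type female libraries (log2 difference from E14 2.25 ± 0.31; edgeR, adjusted p = 0.00104). Krt18, a simple-epithelium keratin, was lower than E14, at 219 and 244 CPM against 335 and 895 CPM, and lost its call without either RlimKO-labelled replicate (adjusted p = 0.106 and 0.123). Among 10 tested trophoblast genes, Peg10 was higher and Ets2 lower, the latter at 46.3 and 45.8 CPM against 82.4 and 74.9 CPM; the Ets2 call was lost without either RlimKO-labelled replicate (adjusted p = 0.164 and 0.276).

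Pluripotency genes did not move together against E14, but several were lower than in the wild-type female cells. Of 25 tested members 2 were higher than both E14 libraries and 1 lower, beside 4.62% and 4.71% of all tested genes. The median was 0.67 against E14 replicate 1 and -0.59 against replicate 2. Against the wild-type female libraries 8 of the 25 were lower and 0 higher, beside 1.9% of all tested genes lower. Pou5f1 was one of them, with 43.8 and 47.7 CPM in the wild-type female libraries (log2 difference -1.24; edgeR, adjusted p = 0.0146). Without RlimKO-labelled replicate 2, 6 autosomal genes in all were lower than in the wild-type female libraries, so these 8 could not all pass there. Tet1, a DNA demethylase of stem cells, stood at 134 and 148 CPM against 79.7 and 73.4 CPM, but was higher still in the wild-type female libraries, at 195 and 215 CPM. Among 11 tested formative and primed genes, Dnmt3b, a de novo DNA methyltransferase, was lower, at 31.5 and 23.6 CPM against 52.7 and 68.9 CPM, Lef1 was lower and Fst higher. Without RlimKO-labelled replicate 2 the lower count of that list was 0, and Fst passed in 4 of the 12 fits that leave out 1 library.

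Wnt genes that passed were lower. Of 31 tested Wnt ligands, receptors, inhibitors and targets 5 were lower than both E14 libraries and 0 higher, beside 4.71% of all tested genes lower. The median was -0.71, and 10 members had opposite signs against the 2 E14 libraries. Lrp5, a Wnt co-receptor, stood at 55.2 and 57.8 CPM against 152 and 149 CPM (log2 difference -1.41 ± 0.18; edgeR, adjusted p = 0.000325). Dkk1 and Dkk3, the first of them a secreted Wnt antagonist, stood at 6.9 and 6.47 CPM against 25.7 and 32.9 CPM, and at 23.7 and 20.8 CPM against 62.9 and 59.1 CPM. The nuclear effectors Lef1 and Tcf7 were the other two. Without RlimKO-labelled replicate 2 the count was 1.

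Early mesoderm had 1 of 12 tested members lower than both, Tbx6, a paraxial mesoderm factor downstream of Wnt, with 2 counts in the RlimKO-labelled libraries against 57 in E14, a ratio of 12.7 (95% exact interval 3.37 to 108, counting error only). Its call was lost without either RlimKO-labelled replicate (edgeR, adjusted p = 0.132 and 0.125). Of 23 tested Nodal and BMP genes 1 was higher and 1 lower than both. This and the other lists of this paragraph stand beside 4.62% higher and 4.71% lower among all tested genes. Among 27 tested hypoxia-response genes 3 were higher (Ankrd37, Kdm3a and Pdk1) and 3 lower, and without RlimKO-labelled replicate 2 both counts were 0. Vegfa, the vascular growth factor, was one of the lower ones, at 135 and 118 CPM against 202 and 244 CPM.

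**Figure D4:**
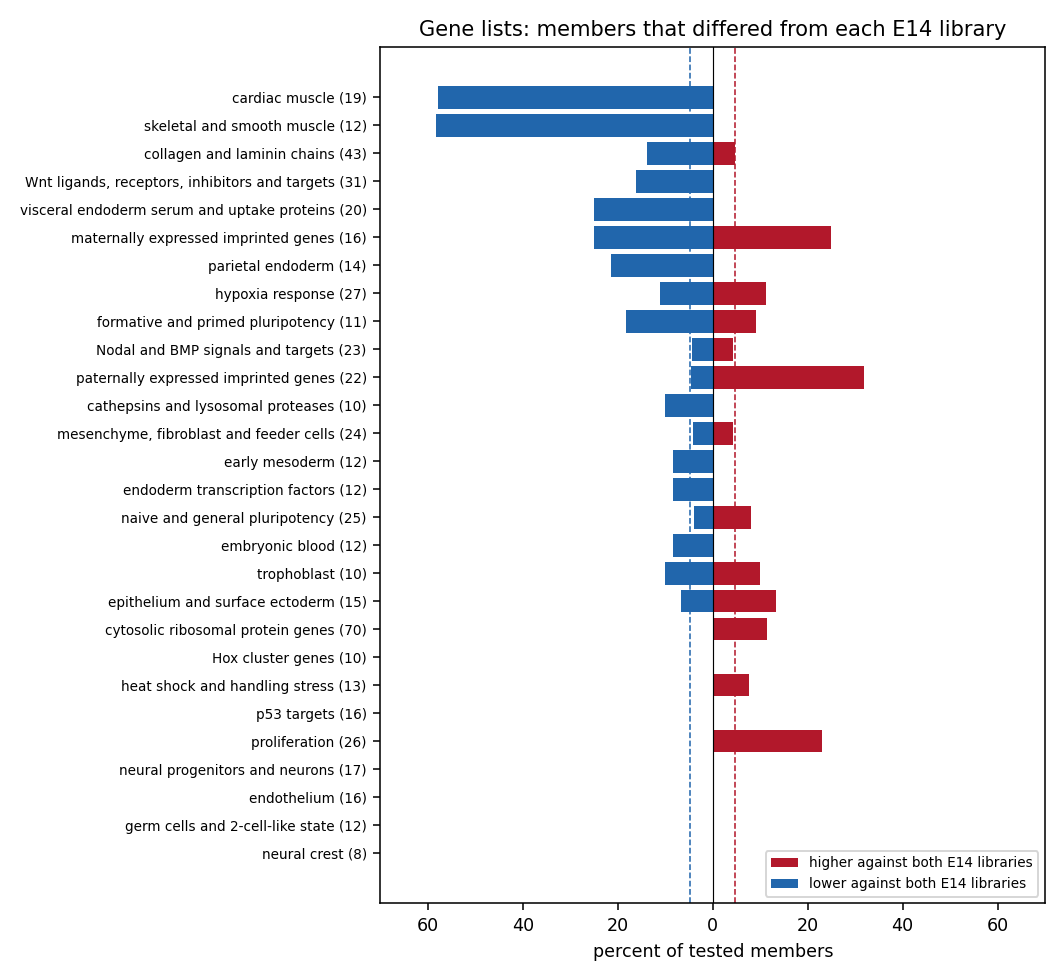
Percent of each list's tested members (number in parentheses) that were higher (right, red) or lower (left, blue) than both E14 libraries, with dashed lines at the shares of all tested autosomal genes, 4.62% and 4.71%. The muscle lists reach furthest to the left, and the imprinted and proliferation lists furthest to the right.

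Of 26 tested proliferation genes 6 were higher than both E14 libraries and 0 lower, beside 4.62% and 4.71% of all tested genes. The list as a whole was split: 11 members had opposite signs against the 2 E14 libraries, the median was 0.14, and the summed level was 5194 and 5281 CPM against 4256 and 5660 CPM. Mcm5, Mcm6 and Mcm7 encode subunits of the replicative helicase. Mcm5 stood at 164 and 190 CPM against 76.2 and 96.0 CPM (log2 difference 1.03 ± 0.16; edgeR, adjusted p = 0.00131). Mcm6 stood at 192 and 195 CPM against 112 and 103 CPM, and Mcm7 at 225 and 233 CPM against 123 and 125 CPM. Pcna, Cdk4 and Rrm2 were the others, and without RlimKO-labelled replicate 1 or 2 the count was 3 each time. Of 70 tested cytosolic ribosomal protein genes 8 were higher and 0 lower, and without RlimKO-labelled replicate 2 the count was 1. The ribosomal list's median was 0.42 against E14 replicate 1 and -0.02 against replicate 2. Both lists were counted without regard to position, and stretches of chromosomes raised as a whole are given below. The part of position in these counts was not tested.

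Of the histone genes, a group chosen after their values were seen, a majority were higher. Most belong to the replication-dependent clusters, whose messages are made in S phase and normally lack a poly(A) tail. Of 68 counted symbols 57 were tested, 38 were higher than both E14 libraries and 0 lower, beside 4.62% of all tested genes higher, with medians of 1.57 and 1.99 against E14 replicates 1 and 2. The others did not pass, and single members ranged from -3.98 to 3.91. Chromosome 13 holds 47 of the 57 tested and 34 of the 38 higher ones. Their counts summed to 4972 and 4388 CPM in the RlimKO-labelled libraries, 2409 and 1599 CPM in E14, and 3554 and 3672 CPM in the wild-type female libraries. Without RlimKO-labelled replicate 1 the count was 20 and without replicate 2 it was 26. Over the RlimKO-labelled and E14 libraries the order of this sum was the order of their Rn45s shares, while the wild-type female libraries, with Rn45s shares of 38.5% and 42.4%, lay below RlimKO-labelled replicate 2, with 30.8%. The part of that share in the histone counts was not tested.

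Hist1h4a, which encodes histone H4, stood at 57.2 and 73.5 CPM in the RlimKO-labelled libraries, 8.86 and 4.96 CPM in E14, and 36.2 and 53.8 CPM in the wild-type female libraries (log2 difference from E14 3.33 ± 0.37; edgeR, adjusted p = 0.000127). Against the wild-type female libraries 0 of the 57 histone genes passed in edgeR, 16 had an unadjusted p below 0.05 and DESeq2 called 1, with a median of 0.56. Of all tested genes 2.91% passed in edgeR in this comparison, and their share at the unadjusted threshold was not counted. Near-identical coding sequences within this family leave the split of reads between single members uncertain.

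By position, chromosomes 8 and 12 stood apart as whole chromosomes. Of 467 tested genes on chromosome 12, 103 were higher than both E14 libraries (22.1%), and of 668 on chromosome 8, 98 were higher (14.7%), beside 4.62% of all tested genes. The median log2 difference on chromosome 12 was 0.45 against E14 replicate 1 and 0.46 against replicate 2, and on chromosome 8 it was 0.45 and 0.41, where the medians over all tested genes were 0.00 and -0.01. These 2 chromosomes were as high before differentiation, with medians of 0.39 and 0.35 between undifferentiated RlimKO-labelled and E14 cells. Differentiated wild-type female cells showed medians of 0.36 and 0.33 against the same E14 libraries, and the RlimKO-labelled and wild-type female libraries differed by medians of only 0.01 and 0.06. Outside chromosomes 8 and 12, 347 genes were higher and 540 lower than both E14 libraries. Parts of other chromosomes were raised too. On chromosome 5, 15 of 111 tested genes from 120 to 130 Mb and 18 of 114 from 130 to 140 Mb were higher. Their medians were 0.36 and 0.29 against E14, and 0.03 and 0.02 against the wild-type female cells. Before differentiation their medians against E14 were 0.52 and 0.33. From 70 to 80 Mb on chromosome 6, 9 of 32 were higher, with a median of 0.66.

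On chromosome 12 the rise was uneven. Between 100 and 110 Mb lies the stretch that holds the Dlk1-Dio3 domain. There 42 of 74 tested genes were higher than both E14 libraries, beside 4.62% of all tested genes, and the median was 1.12. These 42 include symbols of that domain already counted above. From 110 to 120 Mb 25 of 57 were higher, with a median of 0.73, while the first 10 Mb had 0 of 31 and a median of -0.11. Hsp90aa1, a chaperone gene in the raised region, stood at 1579 and 1656 CPM against 613 and 888 CPM in E14, with 1734 and 1861 CPM in the wild-type female libraries. It was the 1 heat shock and handling stress gene of 13 tested that was higher than both, beside 4.62% of all tested genes.

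Chromosome 10 differed from the wild-type female cells as well. From 80 to 90 Mb 21 of 125 tested genes were higher than both E14 libraries and 0 lower, beside 4.62% and 4.71% of all tested genes. The window's median was 0.36 against E14 and 0.50 against the wild-type female cells. The windows from 90 to 100 Mb and from 110 to 120 Mb had medians of 0.51 and 0.49 against the wild-type female cells. Before differentiation the 80 to 90 Mb window already had a median of 0.48 between RlimKO-labelled and E14 cells. Utp20, a ribosome biogenesis gene of this chromosome, stood at 390 and 429 CPM, against 166 and 161 CPM in E14 and 219 and 201 CPM in the wild-type female libraries (log2 difference from E14 1.33 ± 0.13; edgeR, adjusted p = 6.41e-05). Chromosome 11 leaned the other way, with 85 of 1007 tested genes lower than both (8.44%, beside 4.71% of all tested genes) and medians of -0.22 and -0.31.

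**Figure D5:**
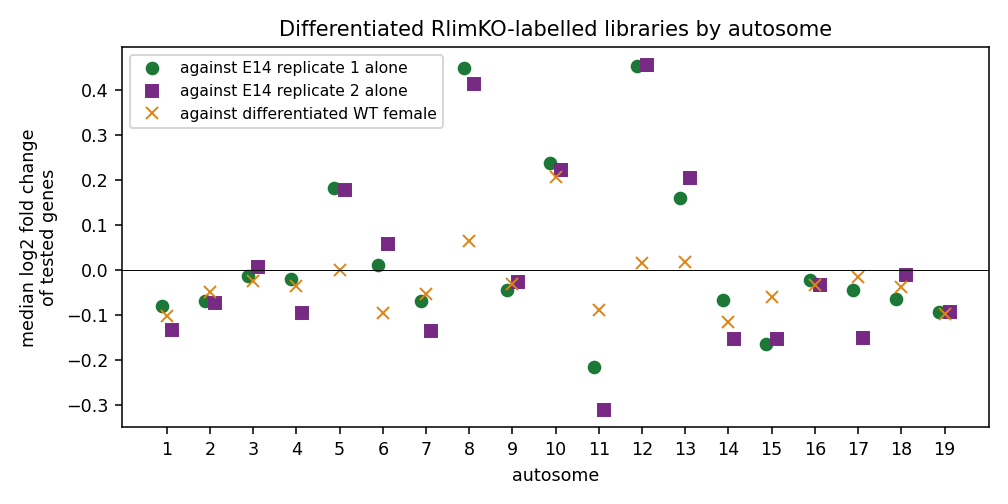
Median fitted log2 fold change of tested genes on each autosome for the RlimKO-labelled libraries against E14 replicate 1 alone (circles), E14 replicate 2 alone (squares) and the wild-type female libraries (crosses). Chromosomes 8 and 12 are above 0.4 against both E14 libraries and near 0 against the wild-type female libraries, and chromosome 10 is near 0.2 against all of them.

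A group of genes on distal chromosome 12 was without counts in the RlimKO-labelled libraries. Sp4, a zinc finger transcription factor gene at chr12:118231686-118301440, had 0 counts in both, against 45 and 103 in E14 and 29 and 30 in the wild-type female libraries, and was at least 22.1-fold lower than in E14 (floor of 3 counts over the group). In undifferentiated RlimKO-labelled libraries it had 0 and 1 counts, against 29 and 75 in undifferentiated E14. Itgb8, an integrin subunit gene under 1 Mb away, had 0 counts in both differentiated RlimKO-labelled libraries, against 36 and 66 in E14 and 22 and 21 in the wild-type female libraries, and was at least 15.2-fold lower than in E14. Itgb8 had 0 counts in all 6 undifferentiated libraries, and its call was lost without RlimKO-labelled replicate 2 (edgeR, adjusted p = 0.0708).

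Between and beside them, Sp8, a second zinc finger gene, had 0 counts against 10 and 11 in E14, too few to test. Unlike Sp4 and Itgb8, Sp8 was also near 0 in the wild-type female libraries, with 0 and 1 counts. Dnahc11, a ciliary dynein gene next to Sp4, had 3 and 2 counts against 28 and 90. Rapgef5 and Cdca7l, the genes on the other side of Dnahc11, were higher than both E14 libraries, at 78.9 and 77.2 CPM against 35.9 and 12.0 CPM for Rapgef5 and 18.7 and 20.3 CPM against 5.76 and 8.27 CPM for Cdca7l. Without 1 of the RlimKO-labelled libraries these 3 calls were lost, with a highest adjusted p of 0.179 for Dnahc11 (without replicate 2), 0.126 for Rapgef5 and 0.147 for Cdca7l (without either; edgeR). Counts do not show whether the genes without reads are present in this line.

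Other genes far from both E14 libraries belonged to no list. Man2a1, a Golgi mannosidase gene on chromosome 17, stood at 506 and 556 CPM, against 123 and 127 CPM in E14 and 116 and 116 CPM in the wild-type female libraries. It was the gene with the smallest p among those higher than both E14 and the wild-type female cells (log2 differences 2.09 ± 0.16 and 2.20; edgeR, adjusted p = 2.76e-06 and 7.43e-06). Htra1, a secreted protease gene, stood at 6.9 and 6.01 CPM, against 57.1 and 52.1 CPM in E14 and 58.3 and 59.9 CPM in the wild-type female libraries (log2 difference from E14 -3.09 ± 0.36; edgeR, adjusted p = 0.000178). Cx3cl1, a chemokine gene, stood at 1.97 and 3.7 CPM against 31.9 and 66.8 CPM.

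Gria4, a glutamate receptor subunit gene, had 32 counts in the RlimKO-labelled libraries against 3 in E14, a ratio of 23.8 (95% exact interval 7.46 to 122, counting error only), and the wild-type female libraries were as high, at 12.2 and 13.2 CPM. Gbp1, an interferon-induced GTPase gene, stood at 0 and 2.31 CPM against 19.9 and 21.7 CPM in E14, and it was already lower before differentiation (edgeR, adjusted p = 0.000935). Ric3, a receptor chaperone gene, was higher, at 10.8 and 11.6 CPM against 0.443 and 0.827 CPM.

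Compared with the wild-type female cells, with no male library in the contrast, 345 autosomal genes differed (2.91%), of which 120 were higher (1.01%) and 225 lower (1.9%) in the RlimKO-labelled libraries. Of the 548 genes higher than both E14 libraries 48 were also higher than in the wild-type female cells and 2 were lower. Of the 559 lower ones 101 were also lower and 1 was higher. These comparisons share the RlimKO-labelled libraries, so the counts are given side by side only. In undifferentiated cells, 147 of the 548 were already higher and 5 lower than in E14, and 107 of the 559 were already lower and 11 higher. The share of all tested genes that passed before differentiation was not counted, so these counts stand without a background. A test of whether the difference changed on differentiation passed for 54 of the 548, all towards higher, and among the 559 for 69 towards lower and 4 towards higher (of all genes tested 2.18%, with 1.05% towards higher and 1.14% towards lower). That test contains the same 4 differentiated libraries by which these genes were chosen, so its direction is largely fixed by the choice, and nothing is read from these counts.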

How the data were processed

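Gene counts of 12 libraries were deposited by the authors as 1 table of whole-number counts per gene, not normalized. Per the labels' protocols, total RNA was reverse-transcribed with template switching, amplified, tagmented with Nextera and sequenced; as described, strand is not marked and no molecular identifiers are used. The submitters' processing notes name HTSeq 0.6.1p1, TopHat2 2.0.12, edgeR 3.10.0, bcl2fastq 2.16.0.10 and the build mm10. Alignment settings and annotation are not given in the sources used here.

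HTSeq's 5 summary lines were dropped (45.4% to 53.3% of reads in no annotated gene, 0.241% to 0.926% ambiguous), as were Rn45s and Lars2. Chromosomes came from RefSeq and GENCODE annotation of the same genome, by symbol (20754), by older symbol (1951) or from GENCODE (402), and 229 symbols were not placed. Counts were fitted in R 4.3.3 with edgeR 4.0.16 (6 groups of 2 libraries, TMM, filterByExpr, quasi-likelihood F test). A gene passed at a Benjamini-Hochberg adjusted p below 0.05 over all 12417 genes tested on any chromosome. In fits that leave out an E14 library, the lone one is assumed to vary like the other groups. The chi-square between libraries goes against this, at 24.8 per degree of freedom for the E14 pair and 1.85 to 2.32 for the others. The p-values of those fits are therefore likely too small. Standard errors derive from the F statistic. With 2 libraries against 2, an exact permutation test cannot go below p = 0.33.

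The libraries, the 28 gene lists and the rule for named genes were chosen with earlier results of these data known. Named were the 12 genes furthest above and the 12 furthest below both E14 libraries that averaged 10 CPM or more in the higher group, with no overlap and no predicted-gene name, up to 4 members of each list by p, and the 4 genes each way by p that also differed from the wild-type female libraries. Other genes were chosen after their values were seen. The steps were tested on simulated counts. DESeq2 1.42.0, other scalings and filters, a replicate block and leaving out each library were the alternatives.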

Additional observations from a re-analysis of the deposited data

Results flagged for a closer look

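These named genes passed a test of whether the difference between RlimKO-labelled and E14 cells changed on differentiation. The value is the log2 difference after differentiation minus that before (edgeR over all 12 libraries). How far the number passing depends on the libraries is given in the next section. Most were named for their difference after differentiation, which is a term of this test, so its direction is in part fixed by that choice. Values above 0 mean that the difference moved up in the RlimKO-labelled cells. Among imprinted genes H19 gave 6.34 (adjusted p = 0.0002), Plagl1 5.42 (0.0123), Grb10 -6.39 (1.01e-07), Igf2r -5.34 (1.18e-08) and Zim1 -7.87 (0.000547).

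Among muscle and endoderm genes Myl7 gave -6.21 (edgeR, adjusted p = 0.0113), Ttn -2.69 (0.00295), Apoe -2.56 (0.00858) and Lamc1 -0.87 (0.0269). Tagln gave 2.25 (0.0489), since it was further below E14 before differentiation, by -3.12, than after, by -0.87.

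Of the other genes, Gria4 gave 9.35 (edgeR, adjusted p = 0.0213; its counts are few), Hist1h4a 3.65 (0.00243), Ric3 3.76 (0.0102), Man2a1 2.59 (6.63e-05), Utp20 0.91 (0.021), Pdk1 1.21 (0.0137), Col9a2 2.53 (0.0107), Mcm6 1.21 (0.00623), Rps15a 1.13 (0.0086) and Rps13 1.19 (0.0211). Cx3cl1 gave -4.35 (0.0288), Klf5 -2.36 (0.0289) and Ctsd -1.11 (0.0215). With 259 genes passing this test out of 11862 (2.18%), Grb10, Igf2r, H19, Zim1 and Man2a1 had the smallest adjusted p of those listed here.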

How the results depend on the processing

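The number of genes different from E14 (1458) was 10 in the fit of the 4 libraries alone, 530 with the 6 differentiated libraries and 851 with a log2 difference of at least 1, and lay between 245 and 4178 with 1 library left out. Of these genes, the number different from both E14 libraries (1107) was 10, 530 and 477 under the same settings and 519 by DESeq2, and lay between 245 and 1101 with 1 library left out; no value exists without an E14 library. The number whose difference changed on differentiation (259, of which 124 higher) was 671 with no expression filter, 35 with only the libraries compared, and 1037 without the libraries of highest and lowest Rn45s share (an alternative chosen after seeing the data), and lay between 42 and 1893 with 1 library left out. Its split moved to 168 higher and 106 lower with TMM factors from autosomal genes, to 188 and 98 with Rn45s and Lars2 kept, and to 207 and 96 with a stricter filter. The number different from the wild-type female libraries (345) was 748, 1993 and 1050 under the first 3 of those settings and 47 with the 6 differentiated libraries, and lay between 10 and 1540 with 1 library left out. The cause of these shifts was not tested.

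Same-numbered libraries did not deviate together (correlations from -0.069 to 0.11), so they share only a number. With a replicate block the 4 counts were 1471, 1039, 247 and 347.

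Of 173 genes followed one by one, 60 passed in every fit that leaves out 1 library, 171 passed with RLE size factors and 149 by DESeq2, and none reversed under the alternatives run. The other scalings moved the median over all autosomal genes from -0.07 to at most -0.03. RlimKO-labelled replicate 1, with 1027807 counts, limits what low genes can show.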
